A study of Mus musculus with 6 samples.

Results

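The surface ectoderm regulators examined here were 9 genes that set or carry epithelial character: the transcription factors Trp63, Grhl1, Grhl2, Grhl3, Ovol1 and Ovol2, the splicing regulators Esrp1 and Esrp2, and the adhesion protein Epcam. They were chosen by name, and earlier results of these data were known at that time. All probes whose platform gene symbol is one of the 9 were taken, which gave 16 of the 45281 probes. Of these, 12 passed a filter on dim probes and stood for 8 of the 9 genes, among 10967 genes in all. The samples came from mouse embryos at embryonic day 9.5 on a mixed background of FVB and 129. Lens placode of wild type embryos, the thickened surface ectoderm over the optic vesicle, was compared with surface ectoderm labelled Pax6-/-. The sources used here name no allele. Tissue was laser microdissected from frozen sections of 10 µm, RNA of 3 embryos was pooled by genotype, and 3 samples per genotype were amplified and hybridised to 1 Illumina bead array each. Since the labels name no separate animals for the replicates, p-values measure only the spread between these samples, which may be technical.

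As background, simple surface ectoderm gives rise to epidermis and to the placodes of the lens, nose and ear. Trp63 maintains ectodermal progenitors, grainyhead-like factors (Grhl) activate genes of cell junctions, and Ovol zinc finger repressors hold back mesenchymal genes such as Zeb1. Esrp proteins direct epithelial splice forms of shared transcripts, among them those of Fgfr2 and Cd44, and Epcam is a membrane glycoprotein of epithelial cells. Pax6 is a transcription factor that the lens placode needs in order to form.

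The arrays differed in quality before any gene was compared. Between 21062 and 22712 probes were detected (detection p under 0.05) on 5 arrays and 17276 on Pax6-/- replicate 2, whose mean raw signal was 182 against 228 to 260 on the others. Values without that array are therefore given beside each regulator below. Levels are log2 signals after background correction and normalization, and differences are Pax6-/- minus wild type, with the standard error (SE) or 95% confidence interval of the limma fit. Pax6 itself had a log2 signal of 11.10, 11.07 and 11.17 on the wild type arrays and 10.26, 10.79 and 10.31 on the Pax6-/- arrays, a difference of -0.66 (adjusted p = 0.528). Where its probes lie against the deleted part is not known here, so they do not check the labels.

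The comparison asked whether the surface ectoderm regulators differed between Pax6-/- ectoderm and the wild type lens placode. None of the 8 measured genes did so past the test over all probes, and the smallest adjusted p was 0.618 (limma, Benjamini-Hochberg). The share of all genes called was 0.00912%. At an unadjusted p under 0.05, 0 of the 8 passed, where 9.09% of all genes did. Differences ran from -0.37 for Epcam to 0.67 for Grhl3, with 4 genes higher and 4 lower, or 3 higher and 5 lower with median centring in place of quantile normalization and 5 higher and 3 lower with a background offset of 50. Their median was 0.04, beside -0.07 over all genes. The median size of the difference, regardless of sign, was 0.27 for the 8 genes and 0.35 over all genes. The genotypes did not overlap in 1 of the 8, Grhl2, or 12.5%, where 17.5% of all genes had no overlap.

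**Figure D1:**
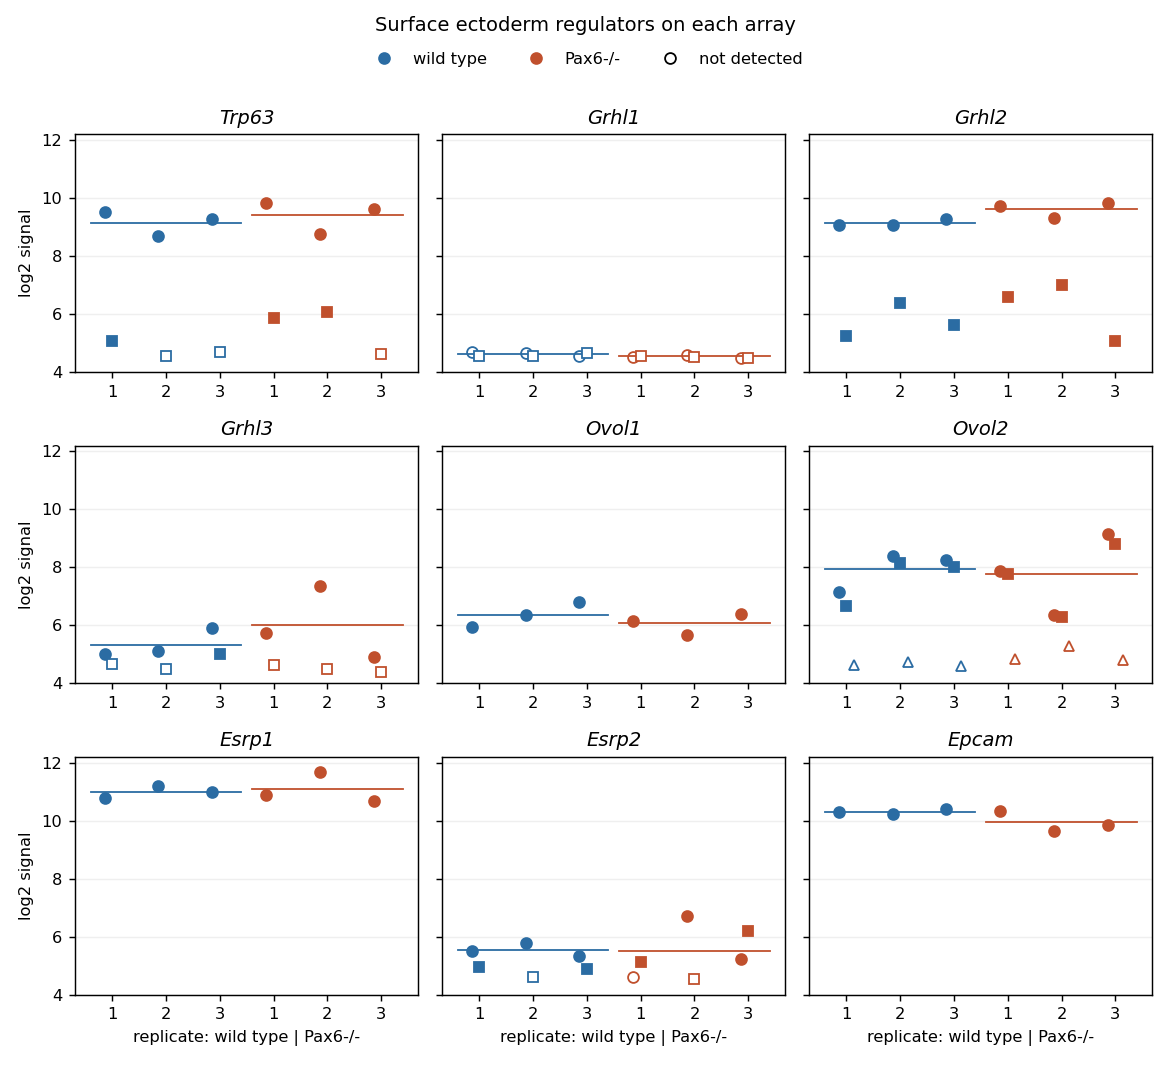
Log2 signal of every probe of the 9 genes (y axis) on the 3 wild type and 3 Pax6-/- arrays (x axis). Circles, squares and triangles are different probes of a gene, open symbols were not detected, and lines are the genotype means of the brightest probe. By their brightest probes, Trp63, Grhl2, Esrp1 and Epcam are well detected on all 6 arrays, and Ovol2 and Grhl3 spread most among the Pax6-/- arrays. The second Trp63 probe is detected on 1 wild type and 2 Pax6-/- arrays, and Grhl1 is open throughout.

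Trp63, the p53-family factor of ectodermal progenitors, was detected on all 6 arrays by its brightest probe. Its log2 signal was 9.51, 8.69 and 9.28 on wild type replicates 1, 2 and 3 and 9.84, 8.76 and 9.62 on Pax6-/- replicates 1, 2 and 3. Wild type replicate 2 and Pax6-/- replicate 2 were the lowest arrays, and the genotypes overlapped. The difference was 0.25 (SE 0.39, adjusted p = 0.852), with an interval from -0.67 to 1.17. This interval spans 1.59-fold lower to 2.25-fold higher signal. The difference was -0.20 within slide 1 and 0.63 within slide 2. The first slide holds Pax6-/- replicates 1 and 2 with wild type replicate 1, and the other slide the remaining arrays. Without Pax6-/- replicate 2 the difference was 0.57 (adjusted p = 0.624) and the genotypes no longer overlapped. A second Trp63 probe, annotated to another transcript record, was dim. It was detected on 1 wild type and 2 Pax6-/- arrays and read 5.07, 4.57 and 4.70 against 5.85, 6.06 and 4.62 (difference 0.73, SE 0.43, adjusted p = 0.630). The sources used here do not say which Trp63 isoform either probe reports.

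Among the grainyhead-like factors, Grhl2 gave the clearest signal. Its brightest probe read 9.06, 9.09 and 9.28 in wild type and 9.72, 9.33 and 9.84 in Pax6-/-, so that every Pax6-/- array lay above every wild type array, by 0.04 at the closest. Non-overlap in this direction occurred in 7.21% of all genes. The difference was 0.49 (SE 0.27, interval -0.14 to 1.11), or 1.40-fold, and did not pass (adjusted p = 0.618). It was 0.46 within slide 1 and 0.66 within slide 2, and 0.64 without Pax6-/- replicate 2 (adjusted p = 0.466). With median centring in place of quantile normalization it was 0.28 and the genotypes overlapped. The second Grhl2 probe had a difference of about the same size, 0.47 (SE 0.56, adjusted p = 0.798), but not the same pattern. It read 5.25, 6.37 and 5.62 in wild type and 6.59, 7.01 and 5.07 in Pax6-/-, with Pax6-/- replicate 3 the lowest array, where the brightest probe had its highest value.

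Grhl1 and Grhl3 were near the limit of detection. Both Grhl1 probes were undetected on all 6 arrays, at log2 signals of 4.48 to 4.71, so that no difference can be given for this gene, which acts in epidermal differentiation. Grhl3, which is needed for neural tube closure and the skin barrier, was detected on all 6 arrays by its brighter probe. That probe read 5.02, 5.10 and 5.90 in wild type and 5.73, 7.37 and 4.91 in Pax6-/-. Pax6-/- replicate 2 was the highest and Pax6-/- replicate 3 the lowest of the 6 arrays. The difference of 0.67 (SE 0.63, interval -0.83 to 2.16, adjusted p = 0.749) rested on that 1 array: without it the difference was -0.02 (adjusted p = 0.993). It was 1.54 within slide 1, which holds Pax6-/- replicate 2, and -0.59 within slide 2. On that array the raw signal of 152 also exceeded the 66.6 to 103 on the others, although the array as a whole was the dimmest. The other Grhl3 probe was detected on wild type replicate 3 alone, at 5.00.

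The Ovol repressors, which oppose the mesenchymal state, had differences of -0.30 and -0.14. Ovol1 read 5.94, 6.37 and 6.79 in wild type and 6.16, 5.67 and 6.39 in Pax6-/- (SE 0.34, adjusted p = 0.791), and overlapped widely. Without Pax6-/- replicate 2, its lowest array, the difference was -0.10 (adjusted p = 0.951), and it was -0.02 within slide 1 and -0.19 within slide 2.

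Ovol2 varied more between arrays of 1 genotype than between genotypes. Its brightest probe read 7.15, 8.41 and 8.25 in wild type and 7.88, 6.34 and 9.15 in Pax6-/-, and the second read 6.66, 8.14 and 8.0 against 7.77, 6.31 and 8.80. Both probes put the 6 arrays in the same order, from Pax6-/- replicate 2 at the bottom to Pax6-/- replicate 3 at the top, and after centring differed by at most 0.24 on any array. The Pax6-/- arrays spanned 2.80 on the brightest probe. The standard error of that probe's mean over its beads was between 2.15% and 5.12% of its raw signal, which covers the reading of 1 array and not the spread between samples. Its difference was -0.14 (SE 0.72, interval -1.85 to 1.56, adjusted p = 0.954), and 0.58 (adjusted p = 0.779) without Pax6-/- replicate 2. It was -0.04 within slide 1 and 0.82 within slide 2. The remaining Ovol2 probe, annotated to another transcript record, was undetected on all 6 arrays.

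The epithelial splicing regulators did not separate the genotypes. Esrp1 read 10.79, 11.19 and 11 (to 2 decimals) in wild type and 10.90, 11.69 and 10.69 in Pax6-/-, with the highest and the lowest array both Pax6-/-. Its difference was 0.10 (SE 0.34, adjusted p = 0.933), and the interval from -0.70 to 0.90 spans 1.62-fold lower to 1.87-fold higher signal. It was 0.50 within slide 1 and -0.40 within slide 2, and -0.20 (adjusted p = 0.839) without Pax6-/- replicate 2. Esrp2 was dim, and its 2 probes did not agree on which arrays were high. The brighter probe read 5.51, 5.80 and 5.33 in wild type and 4.62, 6.70 and 5.24 in Pax6-/- (difference -0.03, SE 0.53, adjusted p = 0.988). The other read 4.94, 4.60 and 4.88 against 5.13, 4.56 and 6.21 (0.49, SE 0.44, adjusted p = 0.738). Pax6-/- replicate 2 was thus the highest array on one Esrp2 probe and the lowest, undetected, on the other. Without that array the brighter probe was at -0.62 (adjusted p = 0.574), with no overlap of the genotypes. It was at 0.15 within slide 1 and -0.32 within slide 2. The values without that array and within slide 1 include Pax6-/- replicate 1, where the brighter probe was not detected (detection p 0.345). With the authors' processed values, put on a log2 scale with a floor of 1, the brighter probe was at -1.08 (SE 1.39, adjusted p = 0.813). This was the widest move of any regulator between settings of the background or scale. The probes give the signal of a gene and do not tell its splice forms apart.

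Epcam read 10.29, 10.22 and 10.42 in wild type and 10.32, 9.66 and 9.84 in Pax6-/-. The wild type arrays lay within 0.20 of each other, Pax6-/- replicate 1 lay among them, and the other Pax6-/- arrays were below all of them. The difference was -0.37 (SE 0.28, interval -1.03 to 0.29, adjusted p = 0.691), or 1.29-fold lower. It was -0.30 within slide 1, -0.48 within slide 2 and -0.23 (adjusted p = 0.814) without Pax6-/- replicate 2. Without Pax6-/- replicate 1 it was -0.56 with no overlap (adjusted p = 0.523), a setting in which 30.0% of all genes had none. Without Pax6-/- replicate 2, Grhl2, Trp63 and Esrp2 had no overlap, where 28.6% of all genes had none. With any 1 of the 4 other arrays left out, Grhl2 was the 1 regulator without overlap, where 24.2%, 28.3% and 23.8% of all genes had none without wild type replicates 1, 2 and 3 and 32.2% had none without Pax6-/- replicate 3.

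**Figure D2:**
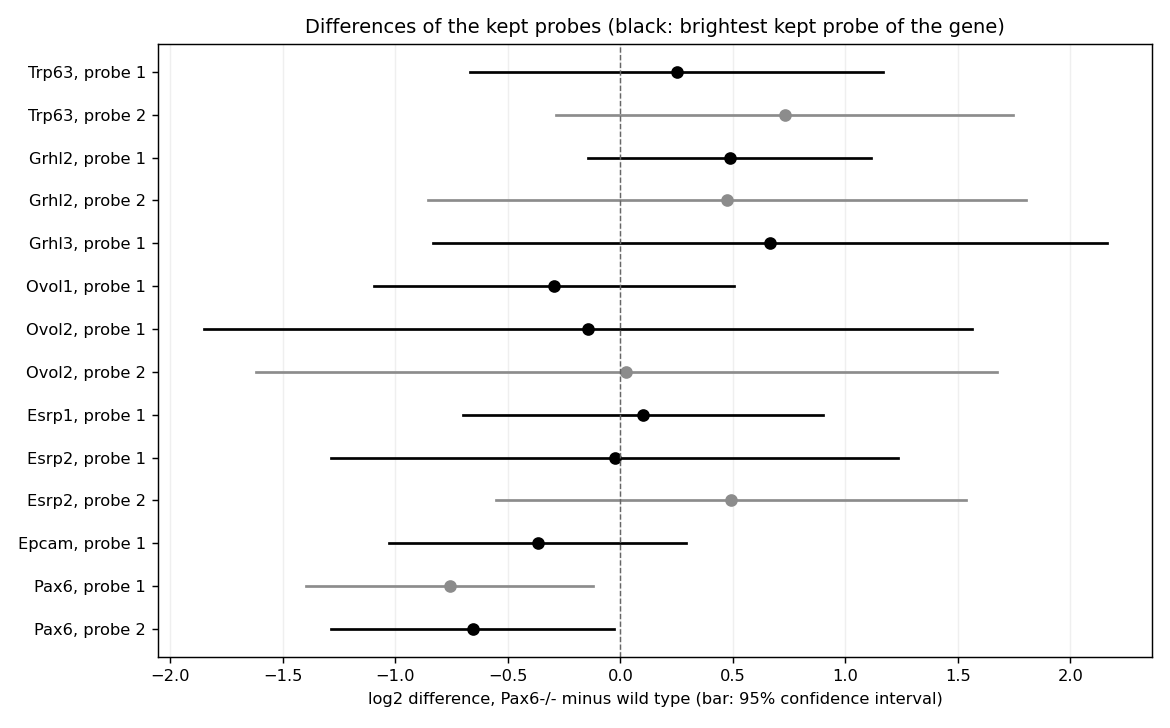
Log2 difference, Pax6-/- minus wild type (x axis), with its 95% confidence interval for each kept probe of the regulators and of Pax6 (y axis). Black marks the brightest kept probe of a gene, the one that stands for it. Every interval of the regulators includes 0, and the widest are those of Ovol2 and Grhl3.

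Promoters of 4 of the 9 genes were matched in the RefSeq table of build GRCm38.p6 (250 bases before to 50 after the start of the gene). They are shown for Epcam and Grhl3 because only these windows matched the E-box or the ACCGGT core described next. The E-box CACCTG, searched on both strands, is read by Zeb and Snai repressors, which Ovol factors oppose. The letters ACCGGT, which read the same on both strands, are the core of the site of Grhl factors. Capitals mark both motifs, and no marked motif overlaps another. The Epcam window is chr17:87635729-87636028 on the plus strand and the Grhl3 window chr4:135573583-135573882 on the minus strand.
Epcam: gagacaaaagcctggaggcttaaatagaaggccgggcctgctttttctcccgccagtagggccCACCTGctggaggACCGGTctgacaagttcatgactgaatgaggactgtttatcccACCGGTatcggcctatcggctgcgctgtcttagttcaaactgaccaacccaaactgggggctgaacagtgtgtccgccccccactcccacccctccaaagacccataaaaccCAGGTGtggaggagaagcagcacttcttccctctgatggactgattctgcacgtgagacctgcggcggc
Grhl3: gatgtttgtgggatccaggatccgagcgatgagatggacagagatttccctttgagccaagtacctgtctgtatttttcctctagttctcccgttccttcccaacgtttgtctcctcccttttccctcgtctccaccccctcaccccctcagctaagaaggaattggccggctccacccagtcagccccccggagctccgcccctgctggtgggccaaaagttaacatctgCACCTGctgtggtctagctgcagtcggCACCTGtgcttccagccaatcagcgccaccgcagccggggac
The Epcam window holds 2 E-boxes, which begin 187 and 19 bases before the start, and 2 ACCGGT cores, which begin 174 and 131 bases before it. The Grhl3 window holds 2 E-boxes, the first 19 bases before the start and the other at base 9 after it, and no ACCGGT. The Ovol2 window and both Grhl1 windows hold neither motif. Of 32851 promoters of the same length, 20.2% hold the E-box and 2.33% hold ACCGGT. The full Grhl site AACCGGTT, in 0.146% of promoters, and the Ovol motif CCGTTA, searched on both strands and found in 2.76%, were in none of these windows. These matches describe the letters only, and no binding was measured here.

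Genes of the structures that these regulators maintain were read from the same fit. Of 34 epithelial junction and adhesion genes, 27 were measured, 13 higher and 14 lower (median -0.14), and 0 passed the test. With median centring 8 were higher and 19 lower. At an unadjusted p under 0.05 there were 2, where 9.09% of all genes passed. In 3 the genotypes did not overlap, or 11.1%, against 17.5% of all genes. Pkp2, a desmosomal plaque protein, read 6.17, 6.58 and 6.35 in wild type and 7.45, 7.51 and 7.58 in Pax6-/- (difference 1.15, SE 0.25, adjusted p = 0.273). Dsg2, a desmosomal cadherin, was at -1.10 (SE 0.52, adjusted p = 0.576), with Pax6-/- replicate 1 the lowest array at 5.70. Spint1, an inhibitor of epithelial surface proteases, was at 0.35 (SE 0.27, adjusted p = 0.689). E-cadherin, Cdh1, was at 0.06 (SE 0.27, adjusted p = 0.948) and the claudin Cldn6 at 0.08 (SE 0.25, adjusted p = 0.923), both named after their values were seen. Without Pax6-/- replicate 2 the list had 10 higher and 17 lower.

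Genes listed for the mesenchymal state, which Ovol factors oppose, did not pass either. Of 18 such genes, 16 were measured, 10 higher and 6 lower (median 0.26). With 1 array left out, 7 to 11 were higher and 5 to 9 lower. Of the 16, 0 passed the test and 1 had an unadjusted p under 0.05, where 9.09% of all genes did. In 4 the genotypes did not overlap, or 25%, against 17.5% of all genes, with 3 of these lower, a direction in which 10.3% of all genes had no overlap. Zeb2, a repressor that binds E-boxes, read 7.36, 7.57 and 7.33 in wild type and 6.53, 6.37 and 6.93 in Pax6-/- (-0.81, SE 0.27, adjusted p = 0.457). Its relative Zeb1, named after its values were seen, was at 0.45 (SE 0.57, adjusted p = 0.812), with Pax6-/- arrays from 7.50 to 9.79. Foxc2, a forkhead factor of mesenchyme, was at -0.73 (SE 0.33, adjusted p = 0.568) and fibronectin, Fn1, at -0.40 (SE 0.24, adjusted p = 0.633), each lower without overlap.

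Transcripts that Esrp proteins splice and splicing factors that act on the same exons gave 12 measured of 14, with 6 higher and 6 lower, a median of -0.02 and 0 past the test. With median centring 3 were higher and 9 lower. At an unadjusted p under 0.05 there was 1, beside 9.09% of all genes. In 2 the genotypes did not overlap, or 16.7%, close to the 17.5% over all genes. These were Rbfox2, a splicing factor, at -0.95 (SE 0.40, adjusted p = 0.536) and Enah, a regulator of actin, at 0.55 (SE 0.30, adjusted p = 0.619). Fgfr2, a receptor whose epithelial form depends on Esrp proteins, read 11.28 to 11.58 in wild type and 11.30 to 11.53 in Pax6-/- (difference 0.03, SE 0.25, adjusted p = 0.969), and was named after its values were seen.

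Of 21 other surface ectoderm regulators, 11 were measured, 7 higher and 4 lower (median 0.06), with 0 past the test. Without Pax6-/- replicate 2, 5 were higher and 6 lower. At an unadjusted p under 0.05 there were 2, where 9.09% of all genes passed. The same 2 were the genes without overlap, or 18.2%, close to the 17.5% over all genes. Both were higher, a direction in which 7.21% of all genes had no overlap. Tfap2b, an AP-2 factor of ectoderm and neural crest, read 10.55, 10.61 and 10.35 in wild type and 11.26, 11.86 and 11.07 in Pax6-/- (0.89, SE 0.30, adjusted p = 0.465). Foxi2, a forkhead factor of cranial ectoderm, was at 1.40 (SE 0.30, adjusted p = 0.266). The related factor Tfap2a was at -0.11 (SE 0.32, adjusted p = 0.921) and Tfap2c at 0.06 (SE 0.24, adjusted p = 0.946), both named after their values were seen. Of 7 paralogs of the regulators, 3 were measured, with 2 higher, 1 lower and none past the test. At an unadjusted p under 0.05 there were 0, where 9.09% of all genes passed. Ubp1, a transcription factor related to the grainyhead family, was the 1 without overlap, or 33.3%, against 17.5% of all genes. It was at 0.43 (SE 0.25, adjusted p = 0.630).

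**Figure D3:**
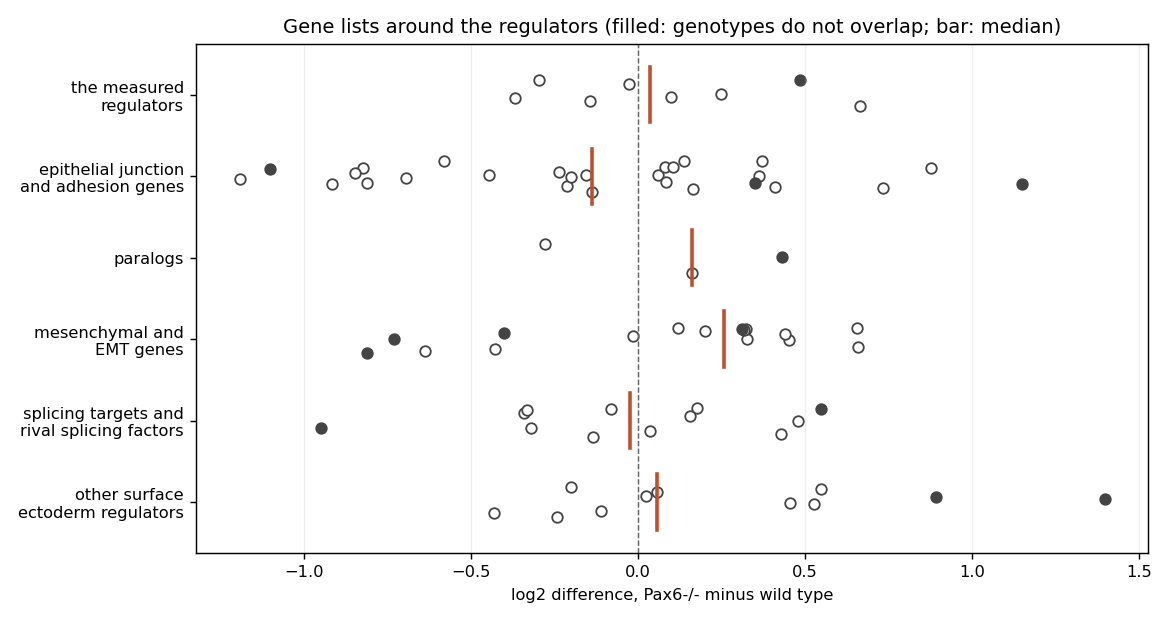
Log2 difference, Pax6-/- minus wild type (x axis), of the 8 measured regulators and of the 5 gene lists around them (y axis); each point is a gene, filled where the genotypes do not overlap, and the bar is the median. All medians lie between -0.14 and 0.26, and each list has genes on both sides of 0.

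Markers of the dissected epithelium and of its neighbours were set beside these values. Of 14 surface epithelium markers, which include the 9 regulators, 13 were measured, and the keratins of simple epithelia Krt8 and Krt18 and Cdh1 were detected on all 6 arrays. The summed linear signal of the 13, in which the brightest probes weigh most, was 10507.5 to 10764 in wild type and 11000 to 12434 in Pax6-/-. That of 9 measured of 13 markers of periocular mesenchyme and neural crest was 2209 to 2658 in wild type and 1547 to 1798 in Pax6-/-, and that of 5 measured of 10 endothelial and macrophage markers was 289 to 410 and 159 to 279. These 3 sums did not overlap between the genotypes, but each separation rested on few genes, as sums computed after these values were seen show. Without the regulators themselves, the other 5 epithelial markers summed to 5517 to 6056 in wild type and 6005 to 7100 in Pax6-/-, which overlap. The full epithelial sum also overlapped without any 1 of Grhl2, Ovol2, Esrp1 or Krt18. Without Pdgfra the mesenchyme sum was 1138 to 1638 and 1341 to 1393. The endothelial sum overlapped without Sox17 (152 to 214 and 138 to 200) and also without Ramp2 (223 to 302 and 135 to 250). Among the 13 epithelial markers, 9 were higher and 4 lower as reported, against 5 and 8 with median centring. Sums of 9 of 12 optic vesicle and neural markers (883 to 1026 and 878 to 1942) and of 6 of 8 primitive erythroid markers (6670 to 16424 and 3270 to 17536) did overlap. The part of the mix of tissues in the differences above was not tested, and in such bulk samples fewer cells of a type and less RNA per cell cannot be told apart. By the medians of single markers rather than sums, the mesenchyme list was at -0.01 and the endothelial list at -0.21, or 0 with its undetected member Cdh5 taken as unchanged. No marker passed the test as reported, and 1 mesenchyme marker did without the filter on dim probes. Of the 9 measured mesenchyme markers, 4 were higher and 5 lower. At an unadjusted p under 0.05 there were 3, where 9.09% of all genes passed. In 4 the genotypes did not overlap, or 44.4%, against 17.5% of all genes. Of these, 3 were lower, a direction in which 10.3% of all genes had no overlap. Among them, Pdgfra, a growth factor receptor, was at -1.89 (SE 0.33, adjusted p = 0.207). Col1a2, a fibrillar collagen chain, was higher, at 0.86 (SE 0.29, adjusted p = 0.468). Col6a2, another collagen chain, passed the filter only through its wild type arrays and was not detected on any Pax6-/- array. Set against the dimmest detected probe there, it was at least 2.41-fold lower (adjusted p = 0.142). Of the 5 measured endothelial and macrophage markers, 2 were higher and 3 lower. The 3 lower ones, Cdh5, Ramp2 and Sox17, had no overlap, or 60%, where 10.3% of all genes were lower without overlap. Cdh5 passed the filter on dim probes only through its wild type arrays, so the filter itself favoured a lower reading for it. Tek and Emcn were at 0.79 (SE 0.54, adjusted p = 0.668) and 0.36 (SE 0.54, adjusted p = 0.845), and overlapped. They were named after their values were seen. The endothelial genes Ramp2 and Sox17 were at -1.40 (SE 0.34, adjusted p = 0.329) and -2.12 (SE 0.60, adjusted p = 0.394). Both differences include Pax6-/- arrays at background, since Sox17 was detected on 1 of the 3 and Ramp2 on 2 of the 3. Cdh5, not detected in Pax6-/-, was too dim in wild type for a fold to be given. Of the 9 measured optic vesicle and neural markers, 4 were higher and 5 lower (median -0.23). Pax2 was the 1 without overlap, or 11.1%, against 17.5% of all genes, and was at 2.53 (SE 0.76, adjusted p = 0.414). Of the 6 measured erythroid markers, 0 were higher and 6 lower (median -0.70). At an unadjusted p under 0.05 there were 0, where 9.09% of all genes passed. The factor Klf1 was the 1 without overlap, or 16.7%, against 17.5% of all genes. It was not detected in Pax6-/- and passed the filter only through its wild type arrays. Its wild type mean was 1.38-fold above the dimmest detected probes of the Pax6-/- arrays. The interval of its fitted difference, -1.46 to 0.02, included 0 (adjusted p = 0.551). Markers whose probes did not pass the filter included the endothelial Pecam1 and Kdr, the macrophage receptor Csf1r, the crest marker Sox10 and the eye field factor Six6.

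**Figure D4:**
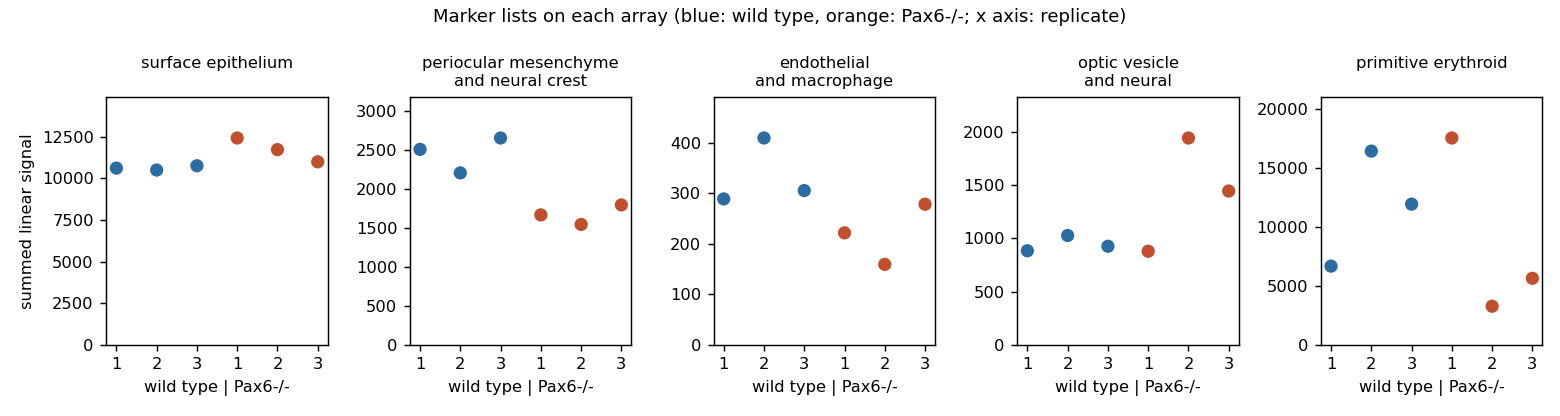
Summed linear signal (y axis, from 0) of the measured markers of 5 tissues on each array (x axis: wild type replicates 1 to 3, then Pax6-/- replicates 1 to 3). The surface epithelium sum is higher on all Pax6-/- arrays and overlaps once the regulators are taken out of it. The mesenchyme and endothelial sums are lower on all of them and overlap without Pdgfra and without Sox17 or Ramp2, and the erythroid sum varies from 3270 to 17536.

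Across 19 other settings (12 changes of processing or model, the mean of all kept probes of a gene, and 6 fits that left out 1 array each), no regulator passed the test, and the smallest adjusted p was 0.443, for Grhl2. Under each of them the differences of Trp63, Grhl2, Ovol1 and Epcam kept their sign, with ranges of 0.01 to 0.57, 0.28 to 0.64, -0.51 to -0.08 and -0.57 to -0.23. Those of Grhl3, Ovol2, Esrp1 and Esrp2 changed sign in at least 1 of these settings.

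**Figure D5:**
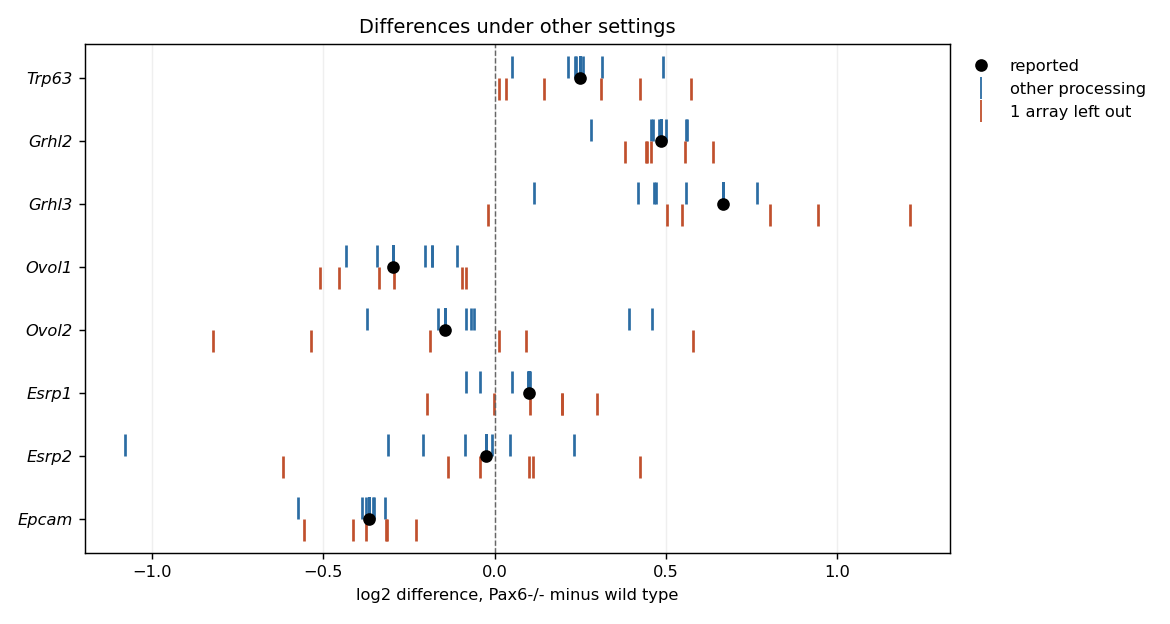
Log2 difference, Pax6-/- minus wild type (x axis), of each measured regulator (y axis) as reported (black), under other processing or models (blue) and with 1 array left out (orange). Grhl2 and Epcam stay on 1 side of 0, while Ovol2, at -0.82 to 0.58, crosses it.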

How the data were processed

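Illumina bead arrays of 3 wild type and 3 Pax6-/- samples were used, grouped and numbered by their titles, with the slide from the chip in each description. The authors deposited average signals (intensity, linear, not background-subtracted), detection p-values, bead standard errors and bead numbers per probe, per the file headers, and a table of processed intensity values whose background and normalization method the sources used here do not give. The submitters' processing notes name GenomeStudio without a version.

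Signals were corrected with neqc (limma 3.58.1, R 4.3.3; offset 16, quantile normalization, log2), with the background inferred from detection p-values; the offset compresses differences of dim probes. Probes with detection p under 0.05 on at least 3 arrays were kept, 21971 of 45281. Genotype was fitted with lmFit and eBayes, with Benjamini-Hochberg adjustment over all kept probes. Precision is limited by the number of arrays. The kept probe with the highest mean stood for a gene. Of the probes, 34885 had 1 symbol in the platform annotation, 18 several and 10378 none listed, and 34807 matched by Entrez id in the GRCm38.p6 table, with 0 symbols changed. The fit was tested on simulated data. Same-numbered samples of the genotypes did not deviate together (r = 0.06, 0.05 and 0.02). Each regulator is named, and per list up to 3 genes without overlap and with the smallest p where none was called. The members and lists were chosen with earlier results of these data known, and the promoter motifs after the values were seen. Alternatives covered background, scaling, the filter, blocks, weights, the variance prior, the probes of a gene and each array left out; marker sums without single markers were added after the values were seen. Plots used matplotlib 3.10.9.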

Additional observations from a re-analysis of the deposited data

How the results depend on the processing

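No regulator was called under any alternative run. Over all probes, 2 were called lower and 0 higher. The counts were 40 lower and 7 higher with the authors' processed values, 15 and 2 with array weights, 5 and 0 at a detection p under 0.01, 6 and 0 without a filter, and 1 was called higher with a trend in the variance prior. With the slide as a block 0 were called lower, and 0 with the replicate block, which changed no call of a regulator; with each array left out, 0 to 2. The cause was not tested. The sign of 4 regulators turned in some of the 19 other settings. Within slide 1, a comparison outside those settings, Trp63 also turned, at -0.20. Esrp1 was -0.0823 with median centring and -0.0419 with array weights, and -0.20 to 0.30 with 1 array left out. Ovol2 was 0.39 with the slide as a block and 0.46 with weights, and -0.82 to 0.58 with 1 array left out. Esrp2 was 0.0443 with a neqc offset of 50 and 0.23 as the mean of its kept probes, against -1.08 with the authors' values, and -0.62 to 0.43 with 1 array left out. Grhl3 was -0.0198 to 1.21 with 1 array left out. Median centring put the median difference of all genes at -0.20, against -0.07 as reported and -0.11 with the authors' values, so differences on these scales are relative to those medians. Median centring moved the split of the junction, splicing and epithelial marker lists toward lower, as given beside their counts. Dim probes (Grhl1, Grhl3, Esrp2) limit what can be seen.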
